A study of Mus musculus with 6 samples.

Results

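The cells described here are the dividing Lgr5+ cells of the mouse ileal crypt: barcodes that carried at least 1 UMI (unique molecular identifier, 1 counted RNA molecule) of Lgr5 together with at least 0.05% of their UMIs in 6 mitotic genes, Mki67, Top2a, Ccnb1, Cdk1, Birc5 and Ube2c. Barcodes with 10% or more of their UMIs in 7 Paneth cell genes (Defa21, Defa22, Defa24, Defa30, Gm14851, Mptx2 and Lyz1) were left out. The rule found 515 cells among 8422 barcodes kept (6.11%), where a kept barcode had at least 5000 UMIs, at least 500 genes and at most 20% of UMIs in mitochondrial genes. The cells were thus selected on their counts of Lgr5 and of these mitotic and Paneth genes, and the levels of those genes are given as a description with no test. The shares compared between genotypes count cells by the same rule. Lgr5 was the only stem cell gene the rule used.

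The study isolated ileal crypts, sorted EpCAM-positive epithelial cells and made 1 single-cell RNA-seq library per sample on the MobiNova-100 platform, with 3 libraries per genotype. Control mice carried the floxed Fpr2 gene without Cre (Fpr2f/f, genotype given as WT in the labels). Fpr2VKO mice carried the same floxed gene together with Villin-Cre, which deletes it throughout the intestinal epithelium and not only in stem cells. All mice were untreated adults on the C57BL/6J background. FPR2 is a G protein-coupled receptor for bacterial and host peptides and lipids, and the question the study put to these libraries was how its loss changes proliferation and differentiation of crypt cells. The libraries held 90142126 to 189516114 UMIs and gave 980 to 2117 kept barcodes each, and the mitochondrial limit alone removed 64.9% to 78.9% of otherwise passing barcodes. Fpr2 had 0 UMIs in dividing Lgr5+ cells and in every other kept barcode of both genotypes, so the deletion could not be checked at this depth. A count of 0 among the UMIs of the members allows a level of up to 0.867 to 1.97 CPM per library (CPM, a gene's UMIs scaled to 1000000 UMIs of its sum), for counting error only.

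Crypt base columnar stem cells sit between Paneth cells at the bottom of the crypt and carry LGR5, a receptor for R-spondins that strengthens Wnt signalling. They divide steadily, and their daughters pass into the transit-amplifying compartment, where Lgr5 is lost while division goes on and the absorptive or secretory fate is chosen. Mitotic genes are switched on together late in the cell cycle, largely through promoters that carry CCAAT boxes, bound by NF-Y, and a CHR element with the letters TTTGAA, bound by complexes that repress the genes in resting cells and activate them before mitosis.

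Promoters of 4 of the mitotic genes that chose the cells are shown because they hold both kinds of element, and Mki67, Top2a and Cdk1 are also the markers by which these cells are named. Each sequence is the RefSeq promoter on GRCm38.p6, 250 bases before to 50 bases after the gene's start, read 5′ to 3′ on the gene's strand. The windows are chr11:99024140-99024439 on the minus strand for Top2a (topoisomerase that untangles chromosomes), chr10:69352863-69353162 on the minus strand for Cdk1 (the kinase that drives entry into mitosis), chr7:135716330-135716629 on the minus strand for Mki67 (the Ki-67 protein that coats mitotic chromosomes) and chr2:164769679-164769978 on the plus strand for Ube2c (the E2 enzyme of the anaphase-promoting complex). Capitals mark CCAAT or TTTGAA on either strand, so that ATTGG and TTCAAA are the same letters on the opposite strand.
Top2a: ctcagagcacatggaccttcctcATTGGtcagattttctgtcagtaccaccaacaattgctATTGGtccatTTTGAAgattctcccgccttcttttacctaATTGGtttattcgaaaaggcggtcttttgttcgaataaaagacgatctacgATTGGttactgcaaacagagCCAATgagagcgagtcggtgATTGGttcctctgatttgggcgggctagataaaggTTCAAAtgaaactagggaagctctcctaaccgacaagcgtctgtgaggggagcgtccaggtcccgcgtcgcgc
Cdk1: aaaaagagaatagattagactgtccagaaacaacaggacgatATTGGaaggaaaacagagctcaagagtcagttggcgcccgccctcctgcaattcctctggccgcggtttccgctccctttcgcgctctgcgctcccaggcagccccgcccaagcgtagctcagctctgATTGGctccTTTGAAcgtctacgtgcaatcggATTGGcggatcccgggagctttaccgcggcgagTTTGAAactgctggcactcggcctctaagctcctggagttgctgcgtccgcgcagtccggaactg
Mki67: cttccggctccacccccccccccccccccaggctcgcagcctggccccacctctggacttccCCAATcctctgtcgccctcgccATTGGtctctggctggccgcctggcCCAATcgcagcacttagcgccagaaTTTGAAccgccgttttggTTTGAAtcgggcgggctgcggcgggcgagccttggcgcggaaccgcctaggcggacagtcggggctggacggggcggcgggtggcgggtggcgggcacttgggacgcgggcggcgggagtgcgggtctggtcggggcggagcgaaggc
Ube2c: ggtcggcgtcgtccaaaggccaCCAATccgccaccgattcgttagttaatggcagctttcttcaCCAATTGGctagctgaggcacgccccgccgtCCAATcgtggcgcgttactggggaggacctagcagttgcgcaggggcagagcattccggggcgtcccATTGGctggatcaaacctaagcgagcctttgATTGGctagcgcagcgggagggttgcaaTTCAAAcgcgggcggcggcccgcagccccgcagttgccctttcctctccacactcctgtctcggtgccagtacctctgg

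Top2a and Ube2c held 6 CCAAT matches each, and Mki67 and Cdk1 held 3 each. TTTGAA occurred 2 times in Top2a, Cdk1 and Mki67 and 1 time in Ube2c. Ccnb1 had 2 CCAAT and 0 TTTGAA matches, and Birc5 had 0 of either. A stretch CCAATTGG, as in Ube2c, counts on both strands. Of 32851 promoters of this length, 37.4% held CCAAT, 17.9% held TTTGAA and 6.95% held both. Among 36 genes of G2 phase and mitosis outside the rule, 29 had a promoter entry, and 19 of their 31 promoters (61.3%) held both. The S-phase and replication genes had both in 3 of 32 promoters (9.38%), and the crypt base stem cell markers in 1 of 24 (4.17%). These are matches of letters and do not show that a factor binds there.

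Every library contributed dividing Lgr5+ cells, 45, 89 and 71 in Fpr2f/f replicates 1, 2 and 3 and 89, 111 and 110 in Fpr2VKO replicates 1, 2 and 3. They were deep cells, with a median of 29648 UMIs and 5631 genes, and the median mitochondrial share was 12.1%. Depth differed among libraries, with median UMIs of 33648, 10109 and 16222 in Fpr2f/f and 41229, 29635 and 33179 in Fpr2VKO. A deeper barcode has more chance of an Lgr5 UMI, and the 2696 dividing cells without one had a median of 10064 UMIs. The 525 Lgr5+ cells with fewer mitotic transcripts had a median of 19909 UMIs. Of the barcodes kept, 34 sequences occurred in more than 1 library, and none of them was a member in more than 1.

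The mitotic genes made up a median of 0.145% of the UMIs of a member and at most 0.540%. Mki67 was at 276, 215 and 291 CPM of summed UMIs in Fpr2f/f and 295, 230 and 297 CPM in Fpr2VKO, and 93.2% of members had at least 1 Mki67 UMI. Top2a was at 412, 365 and 491 CPM in Fpr2f/f and 456, 345 and 441 CPM in Fpr2VKO. Cdk1 averaged 203 ± 26.2 CPM (SD, n = 6 libraries). The levels of all 3 markers overlapped between genotypes. Lgr5 itself ranged from 98.0, 126 and 171 CPM in Fpr2f/f to 188, 187 and 247 CPM in Fpr2VKO, so the genotypes did not overlap for the gene that chose the cells. The lowest member stood at 0.0501% mitotic UMIs and the highest Lgr5+ cell outside at 0.0497%; 33 members lay under 0.06% and 42 Lgr5+ cells lay between 0.04% and 0.05%. The Paneth limit left out 3 barcodes, the nearest at 24.1% Paneth UMIs against 7.48% in the highest member.

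**Figure D1:**
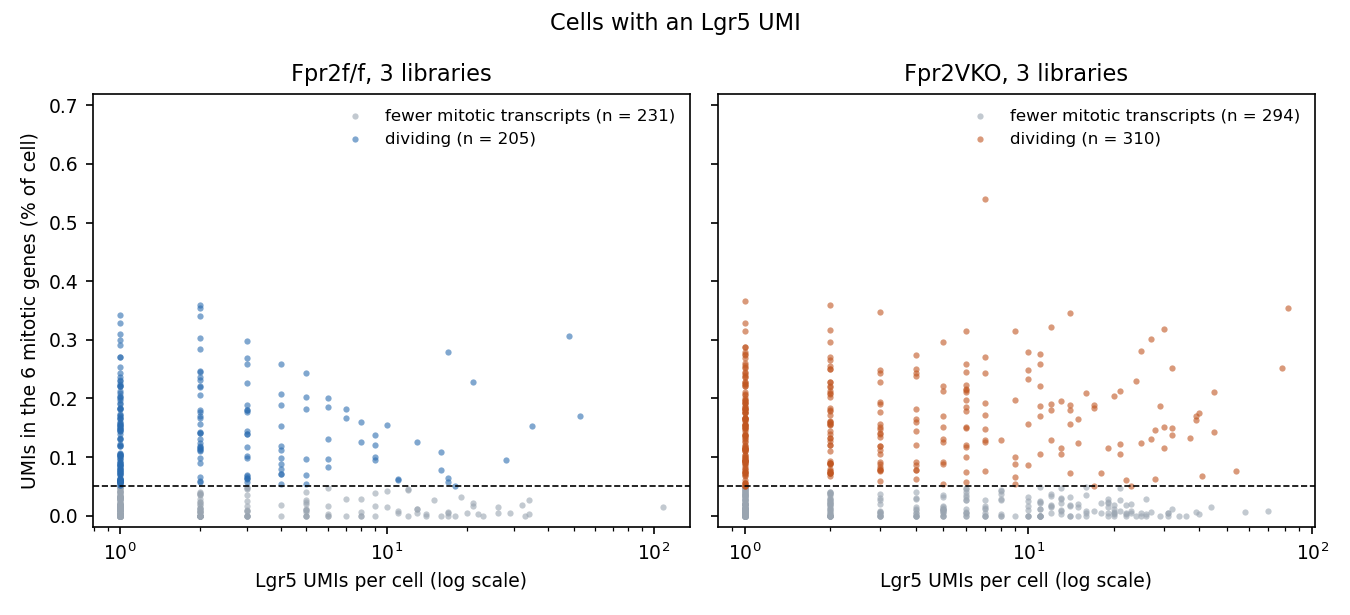
Each point is 1 cell with an Lgr5 UMI, plotted by its Lgr5 UMIs (log axis) and by the percentage of its UMIs in the 6 mitotic genes, for 3 Fpr2f/f and 3 Fpr2VKO libraries. Coloured points above the dashed line at 0.05% are the 205 and 310 dividing Lgr5+ cells, which form a continuum with the grey cells below it.

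Most members rested on few Lgr5 molecules. The median was 2 UMIs and the highest cell had 82, while 225 members (43.7%) had exactly 1 and 138 (26.8%) had 5 or more. Free RNA can give a single UMI, so the share of barcodes with an Lgr5 UMI was measured in cells that should lack the gene, after thinning every barcode to 5000 UMIs. It was 0.708% ± 0.616 (SD, n = 3) in Fpr2f/f and 1.04% ± 1.80 in Fpr2VKO among the 5% of barcodes richest in enterocyte transcripts, and 0.826% ± 0.882 and 0.379% ± 0.656 among those richest in goblet transcripts. Dividing cells stood at 6.36% ± 2.11 and 12.2% ± 3.06, above both. Paneth-rich barcodes, outside the rule, were at 7.77% ± 2.09 and 8.35% ± 0.584, within the spread of the dividing cells of Fpr2f/f. Median depth in these classes before thinning ran from 16840 to 53498 UMIs by library in the differentiated cells and from 7993 to 26756 in the dividing cells. Unthinned, the shares were 12.8% and 21.3% in dividing cells, 2.50% and 2.78% in enterocyte-rich and 37.8% and 44.8% in Paneth-rich barcodes.

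The number of Lgr5 UMIs in a dividing cell went with its other stem cell transcripts. Olfm4, a secreted glycoprotein that marks crypt base stem cells of the ileum, averaged 961 ± 268 CPM (SD, n = 6 libraries) in dividing cells with 0 Lgr5 UMIs. It was at 2201 ± 971 CPM in members with 1, 4022 ± 1527 CPM in members with 2 to 4, and 10924 ± 1249 CPM in members with 5 or more. In every library Olfm4 in members with 1 Lgr5 UMI was above that in dividing cells with none, though in Fpr2f/f replicate 3 the gap was only 969 against 732 CPM. At least 1 Olfm4 UMI was found in 69.4% of dividing cells without Lgr5, 87.1% of members with 1 Lgr5 UMI, 99.3% with 2 to 4, and all with 5 or more.

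The summed level of 25 stem cell markers outside the rule averaged, over the same classes, 2152 ± 354, 3972 ± 1253, 6444 ± 2069 and 15002 ± 1456 CPM. Fpr2VKO replicate 1 was not higher in members with 2 to 4 Lgr5 UMIs than in those with 1, with a marker sum of 3447 against 3900 CPM and Olfm4 at 2105 against 2162 CPM. Mitotic content did not separate the classes in this way. The sum of 36 genes of G2 phase and mitosis was 6924 ± 451, 7165 ± 959, 7741 ± 855 and 8320 ± 764 CPM, with overlapping libraries. Median depth rose alongside, from 15113 UMIs in members with 1 Lgr5 UMI to 37408 in those with 5 or more, and its part in these steps was not tested. The classes were set after their values had been seen, and all counts come from the same cells, so the steps are a description.

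**Figure D2:**
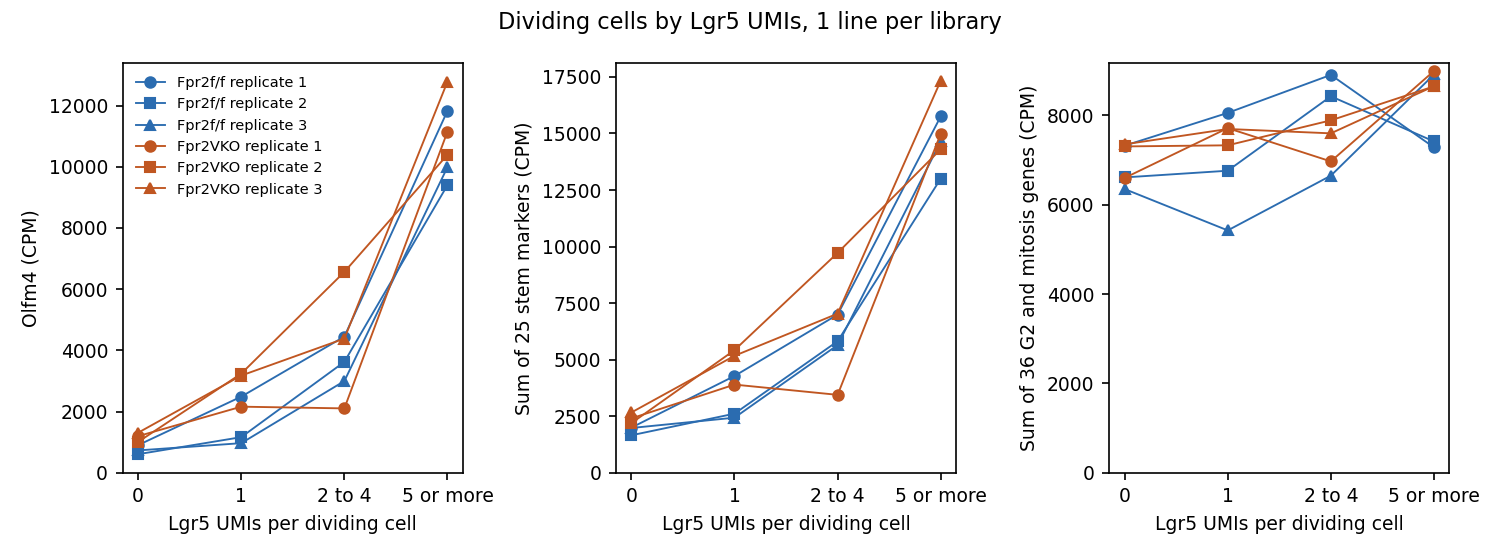
Levels in dividing cells by the number of Lgr5 UMIs in the cell, with 1 line per library, for Olfm4, the sum of 25 stem cell markers and the sum of 36 G2 and mitosis genes (CPM of summed UMIs). Olfm4 and the stem marker sum are highest in cells with 5 or more Lgr5 UMIs in all 6 libraries, where Olfm4 lies between 9402 and 12782 CPM, while the lines of the G2 and mitosis sum cross.

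Set beside dividing cells without Lgr5, the members were higher in stem cell genes. Of the 25 stem markers, 24 were higher in members in all 6 libraries, against 20.8% of the 3653 genes with at least 50 CPM, and the remaining one, Fstl1, was higher in 5. Ascl2, the transcription factor that maintains crypt base stem cells, was at 47.3 ± 12.7 CPM against 9.02 ± 3.33 CPM (SD, n = 6). Smoc2, a matricellular protein, was at 198 ± 35.2 against 88.6 ± 10.4 CPM. Slc12a2, the sodium-potassium-chloride cotransporter, was at 714 ± 176 against 266 ± 44.8 CPM. Igfbp4, an insulin-like growth factor binding protein, was at 57.1 ± 8.83 against 14.3 ± 2.27 CPM. The log2 ratio of Olfm4 ran from 2.22 to 2.83 over the libraries.

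Genes outside the lists also ranked among those highest relative to Lgr5-negative dividing cells. Ifitm3, an interferon-induced membrane protein, was at 395 ± 129 against 106 ± 25.9 CPM, and Sox4, a transcription factor, at 165 ± 48.3 against 54.6 ± 8.49 CPM. In the other direction, 12 of 19 enterocyte markers and 5 of 10 goblet markers were lower in members in all 6 libraries, against 17.7% of genes. Agr2, a protein disulfide isomerase needed for mucin folding, was at 201 ± 97.8 against 645 ± 293 CPM. Gzma, a granule protease of intraepithelial lymphocytes, was at 1.35 ± 0.735 against 145 ± 80.6 CPM. Of the Lgr5-negative dividing cells, 20 had over 1% of their UMIs in 12 immune markers, which the rule did not remove. The immune sum there was 4.43 CPM in Fpr2VKO replicate 3 and 169 to 317 CPM in the other libraries. Its part in the Gzma level was not tested.

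Set beside Lgr5+ cells with fewer mitotic transcripts, the stem markers lay on both sides with a lean to lower, while the G2 and mitosis genes separated. Of the 25 stem markers, 1 was higher and 4 were lower in members in all 6 libraries, with a median log2 ratio of -0.26. Among all genes of at least 50 CPM, 24.0% were higher and 15.6% lower in all 6. Olfm4 was at 5504 ± 1645 CPM in members and 6879 ± 2612 CPM in the less mitotic cells, and Ascl2 at 47.3 ± 12.7 and 47.8 ± 16.9 CPM. Of the 36 G2 and mitosis genes, 35 were higher in members in all 6 libraries, against 24.0% of 3787 genes. Aurkb, the Aurora B kinase of the chromosomal passenger complex, was at 86.5 ± 13.6 against 4.07 ± 2.34 CPM. Tpx2, which nucleates spindle microtubules, was at 123 ± 8.38 against 9.07 ± 5.40 CPM, and Cenpf, a kinetochore protein, at 258 ± 26.6 against 26.5 ± 11.2 CPM.

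Of the 30 S-phase genes, 12 were higher in members in all 6 libraries and 0 were lower in all 6. Among all genes of at least 50 CPM these shares were 24.0% and 15.6%. Tyms, thymidylate synthase, was at 116 ± 22.7 against 44.4 ± 10.7 CPM and higher in members in all 6 libraries, while Mcm6, a subunit of the replicative helicase, was at 91.9 ± 20.2 against 116 ± 28.4 CPM. Pcna, the sliding clamp of DNA polymerase, was at 434 against 405 CPM, with overlapping libraries. Secretory transcripts were lower in members. All 10 goblet markers, 8 of 12 Paneth markers outside the rule, 6 of 12 enteroendocrine markers and 7 of 12 secretory progenitor genes were below the less mitotic Lgr5+ cells in all 6 libraries, against 15.6% of genes. Chgb, a granin of endocrine granules, was at 199 ± 223 against 2263 ± 1288 CPM, and Mmp7, the protease that activates Paneth defensins, at 19.7 ± 9.32 against 332 ± 172 CPM. The less mitotic Lgr5+ barcodes carried the markers of several differentiated types, which the rule did not remove.

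**Figure D3:**
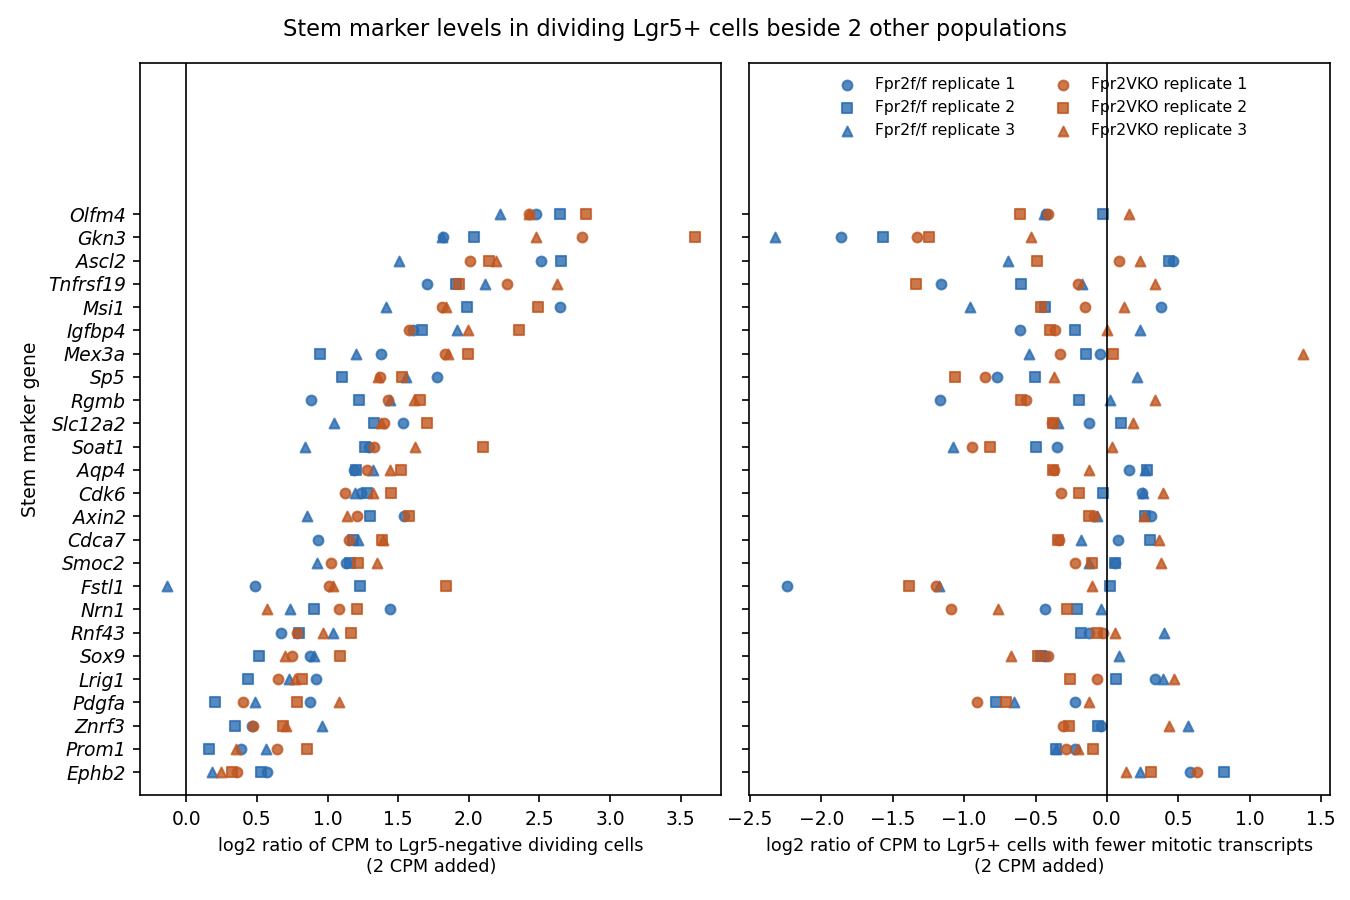
Log2 ratio of the level of each of 25 stem cell markers in dividing Lgr5+ cells to that in Lgr5-negative dividing cells (left) and in Lgr5+ cells with fewer mitotic transcripts (right), with 2 CPM added to both, 1 point per library. On the left, points lie right of 0 for 24 of 25 genes in all 6 libraries, and on the right they scatter around or below 0 for most genes.

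Markers of other cell types were present to different degrees. The 19 enterocyte markers summed to 7768, 4757 and 4236 CPM in Fpr2f/f members and 2563, 2722 and 2847 CPM in Fpr2VKO members, without overlap, and 37 members had over 1% of their UMIs in them. Reg3b and Reg3g made up most of these sums in Fpr2f/f, and the other 17 markers summed to 958, 1279 and 955 CPM in Fpr2f/f and 1294, 1144 and 1194 CPM in Fpr2VKO, with overlap. Cd3e, Col3a1 and Neurod1 had 0 UMIs, and the 12 immune markers summed to 2.28 to 8.38 CPM per library. The 10 goblet markers summed to 574, 2651 and 1895 CPM in Fpr2f/f and 2225, 1488 and 1660 CPM in Fpr2VKO, with no separation of the genotypes. The 12 enteroendocrine markers ranged from 19.8 to 1210 CPM and also overlapped. Scrublet scored doublets, and a preset number of top-scoring barcodes per library was marked, set at 0.8% per 1000 kept barcodes. This marked 101 kept barcodes, of which 2 were members, and the count does not measure the doublet rate.

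Within the cell cycle, the members leaned to G2 and mitosis, which the rule favours. In 448 of 515 cells (87.0%) the 36 G2 and mitosis genes had more UMIs than the 30 S-phase genes, in 64 (12.4%) the S-phase genes had more, and 3 were equal. The cyclone classifier, run on cells thinned to 5000 UMIs, placed 47.0% ± 5.44 of members in G1, 22.1% ± 5.56 in S and 30.9% ± 8.96 in G2/M (SD, n = 6 libraries). It placed 99.3% ± 0.857 of the less mitotic Lgr5+ cells in G1 and gave Lgr5-negative dividing cells 53.4% ± 3.57, 17.1% ± 1.88 and 29.5% ± 4.69. Of the 64 members with more S-phase UMIs it called 95.3% G1. Of the 448 with more G2 and mitosis UMIs it called 39.1% G1 and 36.4% G2/M. Its phase names and the leading transcripts thus disagreed for many members of both kinds.

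The first question between genotypes was whether more or fewer Lgr5+ cells were dividing. The dividing share of Lgr5+ cells was 55.6%, 46.4% and 43.6% in Fpr2f/f and 43.8%, 49.6% and 62.1% in Fpr2VKO, that is 48.5% ± 6.28 and 51.8% ± 9.37 (SD, n = 3). The genotypes overlapped, and the exact permutation test over libraries, two-sided, gave p = 0.6 (adjusted p = 0.98 over 7 shares tested). With 3 libraries against 3, the smallest p this test can reach is 0.1. Such p-values measure the spread between 3 libraries per genotype. After thinning, the shares were 42.8% and 49.9% (exact permutation p = 0.6).

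As a share of all kept barcodes, dividing Lgr5+ cells made up 4.59%, 4.20% and 5.45% in Fpr2f/f and 6.44%, 7.13% and 10.1% in Fpr2VKO. The means were 4.75% ± 0.639 and 7.91% ± 1.97 and the libraries did not overlap (exact permutation p = 0.1, the smallest possible; adjusted p = 0.35). Thinned to 5000 UMIs, they were 2.36% ± 0.364 and 4.63% ± 1.51 (exact permutation p = 0.1). This depended on the mitochondrial limit, because at 10% in place of 20% the means were 4.98% and 4.89%. Median mitochondrial shares of members were 11.03%, 10.4% and 11.7% in Fpr2f/f and 14.0%, 12.1% and 12.5% in Fpr2VKO.

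Among dividing cells, 12.4%, 9.46% and 16.5% had an Lgr5 UMI in Fpr2f/f and 16.8%, 21.2% and 25.8% in Fpr2VKO, again without overlap (12.8% ± 3.54 against 21.3% ± 4.50, exact permutation p = 0.1, adjusted p = 0.35). At 5000 UMIs the shares were 6.29% ± 1.22 and 12.6% ± 3.53. The dividing share of kept barcodes was 38.3% ± 5.83 and 37.2% ± 3.04 (SD, n = 3), and these overlapped. Lgr5 in free RNA, taken from barcodes under 100 UMIs, was 13.3, 14.7 and 13.7 CPM in Fpr2f/f and 16.1, 18.8 and 18.1 CPM in Fpr2VKO, and its part in the shares was not tested.

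Members with 5 or more Lgr5 UMIs made up 24.4%, 14.6% and 14.1% of members in Fpr2f/f and 34.8%, 34.2% and 31.8% in Fpr2VKO, a class chosen after its values were seen and therefore without a test. Median depth of members was 33648, 10109 and 16222 UMIs in Fpr2f/f and 41229, 29635 and 33179 UMIs in Fpr2VKO. The class was not counted on thinned cells, so the part of depth was not tested. Within that class Olfm4 was at 11829, 9402 and 9990 CPM in Fpr2f/f and 11149, 10393 and 12782 CPM in Fpr2VKO, and the genotypes overlapped.

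Phases of members overlapped between genotypes in cells thinned to 5000 UMIs. Members in G2/M made up 30.02% ± 12.5 in Fpr2f/f and 31.8% ± 6.56 in Fpr2VKO (exact permutation p = 1), G1 48.3% ± 7.76 and 45.8% ± 3.01 (exact p = 0.7), and S 21.7% ± 6.21 and 22.4% ± 6.19 (exact p = 1). Members with more S-phase than G2 and mitosis UMIs made up 14.7% ± 8.09 and 11% ± 4.58 (exact permutation p = 0.7). These differences lie within the spread of 3 libraries. The G1 share reached the smallest p the design allows under 2 other settings, with phases from all UMIs of a cell at 46.3% and 40.3%, and with a mitochondrial limit of 40% at 48.6% and 45.0% (exact permutation p = 0.1 each). It turned the other way with at least 2 Lgr5 UMIs required, at 41.3% and 46.0% (exact permutation p = 0.5), and at a mitotic threshold of 0.1%, at 32.8% and 34.1% (exact permutation p = 0.9).

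**Figure D4:**
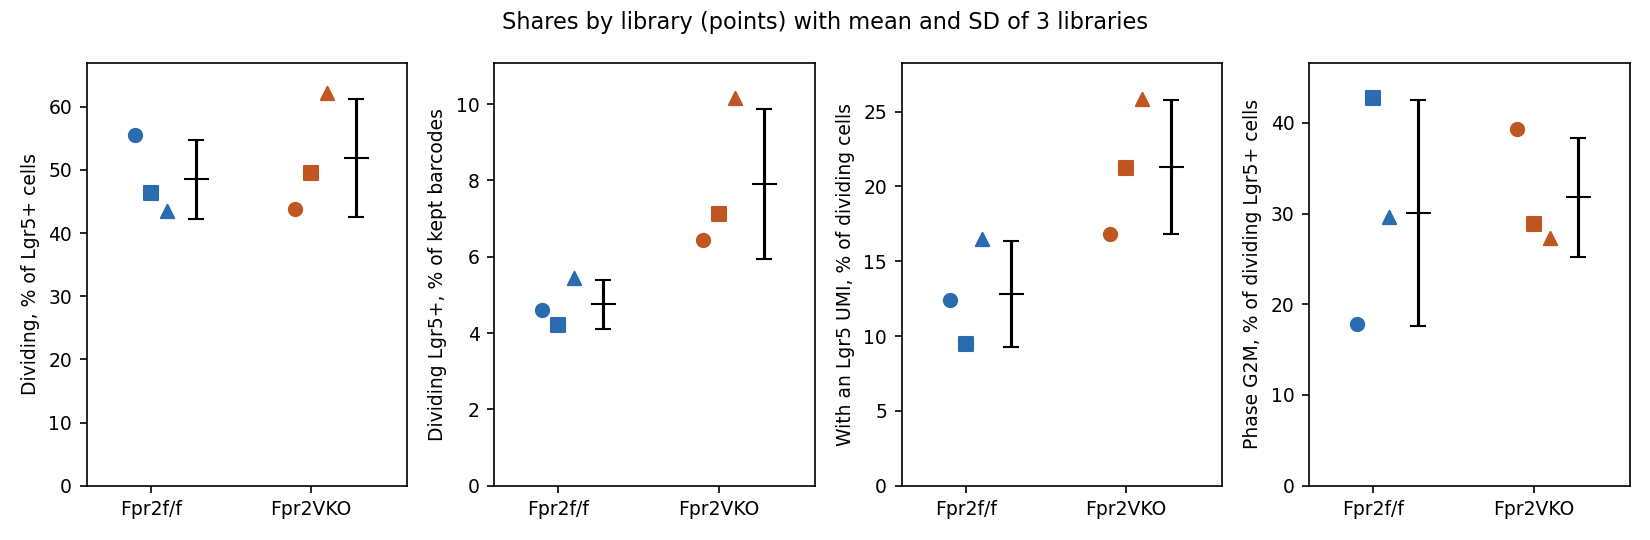
Shares by library (circle, square and triangle for replicates 1, 2 and 3) with mean and SD of 3 libraries per genotype, all axes in percent and starting at 0. Dividing Lgr5+ cells as a share of kept barcodes, and dividing cells with an Lgr5 UMI, do not overlap between Fpr2f/f and Fpr2VKO, while the dividing share of Lgr5+ cells and the G2/M share do.

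Gene expression was then compared between genotypes on UMIs summed over the members of each library. Of 10383 genes tested with edgeR's quasi-likelihood test, 4 (0.0385%) had a Benjamini-Hochberg adjusted p under 0.05, with Mt1 higher in Fpr2VKO (0.00963%) and Reg3g, Bcl2l15 and Vtcn1 lower (0.0289%). At an unadjusted p under 0.05 there were 299 higher (2.88%) and 363 lower (3.5%) genes. DESeq2 called 9 genes.

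Mt1, metallothionein 1, a small protein that binds zinc and copper, rose in members from 347, 407 and 524 CPM in Fpr2f/f to 946, 1026 and 1061 CPM in Fpr2VKO. The genotypes did not overlap, and the log2 fold change was 1.24 (SE 0.171, edgeR adjusted p = 0.00225). The gene lies at chr8:94179082-94180327 on the plus strand (mm10). The change was not particular to members: Lgr5+ cells with fewer mitotic transcripts had 319, 293 and 413 CPM in Fpr2f/f and 1019, 1089 and 1141 CPM in Fpr2VKO, and Lgr5-negative dividing cells 366, 316 and 455 CPM and 1093, 1143 and 1193 CPM. Free RNA of barcodes under 100 UMIs moved with it, at 148, 161 and 236 CPM in Fpr2f/f and 865, 934 and 1111 CPM in Fpr2VKO, and its part in the result was not tested. Mt2, the neighbouring metallothionein, averaged 52.7 ± 25.1 CPM (SD, n = 6) and was not called. Of 6 genes of the metallothionein and zinc list tested, Mt1 was the only one called.

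The promoter of Mt1 is shown because the gene was the only one called higher in Fpr2VKO. It is the RefSeq window chr8:94178839-94179138 on the plus strand of GRCm38.p6, with capitals at the core letters of the metal response element, TGCACNC or TGCGCNC, searched on both strands.
Mt1: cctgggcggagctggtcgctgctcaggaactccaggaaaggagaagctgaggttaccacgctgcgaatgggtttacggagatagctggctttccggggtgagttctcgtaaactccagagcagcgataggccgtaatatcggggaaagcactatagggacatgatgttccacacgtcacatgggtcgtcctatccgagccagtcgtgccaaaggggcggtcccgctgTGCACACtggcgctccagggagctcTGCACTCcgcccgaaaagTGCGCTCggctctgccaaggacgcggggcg

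It held 3 such cores, whereas 25.7% of all promoters of this length held at least 1 and 7.11% at least 2. This is a match of letters only.

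Reg3g, a C-type lectin that kills Gram-positive bacteria, fell in members from 2839, 1727 and 1715 CPM in Fpr2f/f to 713, 790 and 846 CPM in Fpr2VKO. All Fpr2VKO libraries were below all Fpr2f/f libraries (log2 fold change -1.43, SE 0.198, edgeR adjusted p = 0.00225, chr6:78466269-78468872 on the minus strand). Free RNA was at 2128, 1118 and 1974 CPM in Fpr2f/f and 798, 1186 and 875 CPM in Fpr2VKO, and its part was not tested. In Lgr5-negative dividing cells the genotypes overlapped, at 5580, 1977 and 2837 CPM and 1659, 2083 and 1188 CPM. They did not overlap in Lgr5+ cells with fewer mitotic transcripts, at 2631, 2284 and 3425 CPM and 2263, 735 and 1424 CPM. Without Fpr2VKO replicate 1 the adjusted p in members was 0.0736.

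Bcl2l15, a member of the BCL2 family, fell from 71.0, 79.9 and 72.5 CPM to 39.9, 19.8 and 27.4 CPM (log2 fold change -1.36, SE 0.208, edgeR adjusted p = 0.00723, chr3:103832601-103854618 on the plus strand). It was found in 37.7% of members. It was also separated in Lgr5-negative dividing cells, at 126, 101 and 115 CPM and 74.4, 75.9 and 64.8 CPM. The same held over all kept barcodes, at 149, 110 and 149 CPM and 97.5, 89.9 and 86.5 CPM. The genotypes overlapped in Lgr5+ cells with fewer mitotic transcripts, at 68.3, 82.0 and 107 CPM and 74.2, 28.3 and 50.8 CPM. The adjusted p was 0.0902 without Fpr2f/f replicate 2 and 0.0518 without Fpr2f/f replicate 3, and in edgeR it was 0.0730 at a mitotic threshold of 0.1%, 0.0871 at a mitochondrial limit of 10% and 0.432 with at least 2 Lgr5 UMIs required. Free RNA held it at 75.4, 67.7 and 86.6 CPM and 46.1, 49.9 and 47.0 CPM, and its part was not tested.

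Vtcn1, the B7-H4 immune checkpoint ligand, was below the 20 CPM set for naming genes and is named after its values were seen because it completes the 4 calls. It was at 17.8, 8.44 and 18.5 CPM in Fpr2f/f and 3.18, 0.650 and 0.595 CPM in Fpr2VKO, and 4.27% of members had a UMI (log2 fold change -3.24, SE 0.507, edgeR adjusted p = 0.00815). The gene lies at chr3:100825459-100896922 on the plus strand, and without Fpr2f/f replicate 3 the adjusted p was 0.101. Free RNA held Vtcn1 at 13.8, 13.3 and 10.9 CPM in Fpr2f/f and 5.38, 7.38 and 6.95 CPM in Fpr2VKO, above the members in Fpr2f/f replicate 2 and in all Fpr2VKO libraries, and its part was not tested. Mt1 was the only gene still called when members needed at least 2 Lgr5 UMIs (adjusted p = 0.0484) or when each cell was thinned to 5000 UMIs before summing (adjusted p = 0.0373), and no gene was called at the 10% mitochondrial limit, where Mt1 had an adjusted p of 0.0567 in edgeR and 423 genes had an unadjusted p under 0.05.

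**Figure D5:**
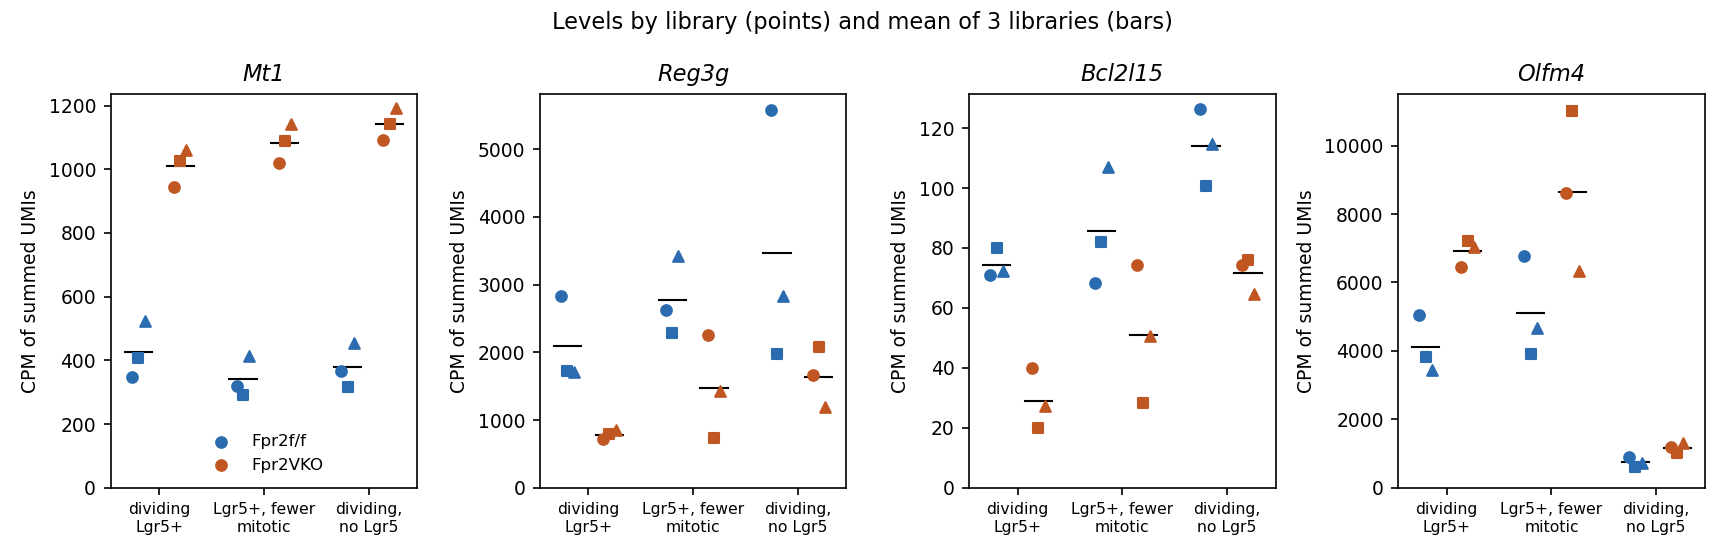
CPM of summed UMIs by library (points, shapes for replicates) and mean of 3 libraries (bars) of Mt1, Reg3g, Bcl2l15 and Olfm4 in dividing Lgr5+ cells, Lgr5+ cells with fewer mitotic transcripts and Lgr5-negative dividing cells, with Fpr2f/f in blue and Fpr2VKO in orange. Mt1 is higher in Fpr2VKO in all 3 populations, and Bcl2l15 is lower in Fpr2VKO without overlap in both dividing populations. Reg3g is lower in Fpr2VKO without overlap in both Lgr5+ populations and overlaps in Lgr5-negative dividing cells. Olfm4 is higher in Fpr2VKO without overlap in both dividing populations, and did not pass the test in dividing Lgr5+ cells.

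Stem cell markers leaned to Fpr2VKO, with none of 25 called. Of these, 21 had a higher and 4 a lower estimate, the median log2 fold change was 0.34 against -0.00 over all genes tested, and 9 had an unadjusted p under 0.05, all higher, beside 2.88% of all genes. With 1 library left out that count was 5 to 8, lowest without Fpr2VKO replicate 2. The genotypes did not overlap for 7 of them, all higher, beside 5.63% of all genes higher and 5.25% lower without overlap. Olfm4 was at 5044, 3830 and 3428 CPM in Fpr2f/f and 6464, 7207 and 7049 CPM in Fpr2VKO (log2 fold change 0.74, SE 0.188, edgeR adjusted p = 0.319), and DESeq2 called it with an adjusted p of 0.00623. Free RNA held Olfm4 at 251, 265 and 297 CPM in Fpr2f/f and 546, 647 and 620 CPM in Fpr2VKO. Olfm4 was also separated in Lgr5-negative dividing cells, at 905, 609 and 732 CPM in Fpr2f/f and 1198, 1011 and 1311 CPM in Fpr2VKO. In Lgr5+ cells with fewer mitotic transcripts the genotypes overlapped, at 6774, 3905 and 4659 CPM and 8612, 11004 and 6322 CPM.

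Slc12a2 was at 674, 527 and 513 CPM in Fpr2f/f and 765, 946 and 862 CPM in Fpr2VKO (edgeR adjusted p = 0.554). Cdk6, a G1 kinase that is also a stem cell marker, was at 191, 160 and 217 CPM and 192, 260 and 267 CPM, and its genotypes overlapped. Ascl2 was at 44.7, 41.7 and 26.4 CPM in Fpr2f/f and 63.0, 52.7 and 55.0 CPM in Fpr2VKO (log2 fold change 0.59, edgeR adjusted p = 0.566), named after its values were seen as the regulator of this cell state. The sum of the 25 markers was 6480 ± 898 and 9902 ± 677 CPM (SD, n = 3). Across Lgr5-negative dividing cells it also did not overlap, at 1998, 1660 and 1982 CPM in Fpr2f/f and 2406, 2197 and 2668 CPM in Fpr2VKO. It overlapped in Lgr5+ cells with fewer mitotic transcripts, at 9416, 6120 and 7308 CPM and 12005, 15130 and 9149 CPM. In members with at least 2 Lgr5 UMIs the median log2 fold change was 0.17 with 3 genes at an unadjusted p under 0.05. On thinned sums it was 0.17 with 3 of 19. At a mitotic threshold of 0.1% it was 0.43 with 12 of 24, and with at least 10000 UMIs 0.35 with 11 of 25. With the replicate number as a block 3 of the 25 were called.

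Cell cycle genes gave no call in any list. Of 30 S-phase and replication genes, 15 were higher and 15 lower, the median log2 fold change was -0.02, and their sum was 2157 CPM in Fpr2f/f and 2202 CPM in Fpr2VKO. That split moved with single libraries and with the filter on cells, to 8 higher and 22 lower without Fpr2f/f replicate 2 (median -0.11), 19 and 11 without Fpr2f/f replicate 3 (0.12), and 21 and 5 of 26 at the 10% mitochondrial limit (0.24). It was 10 and 20 when Fpr2VKO replicate 1 was left out and 20 and 10 when Fpr2VKO replicate 2 was. Among G2 and mitosis genes 2 of 36 were higher at an unadjusted p under 0.05, beside 2.88% of all genes. Estimates were higher for 33 of 36, with a small median of 0.13. Without Fpr2f/f replicate 3 estimates were higher for 23 of 36 with a median of 0.04. With at least 2 Lgr5 UMIs required they were higher for 23 of 36 with a median of 0.08. Their sum was 7368 ± 825 and 8086 ± 92.2 CPM, with Fpr2f/f replicate 1 at 8173 CPM inside the Fpr2VKO range. Hmgb2, a chromatin protein, led this list at 1854 ± 213 CPM over 6 libraries. Smc4, a condensin subunit, was at 584, 473 and 579 CPM in Fpr2f/f and 662, 591 and 664 CPM in Fpr2VKO (edgeR adjusted p = 0.895).

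Among 16 G1 cyclins and cell cycle inhibitors none was called, 1 was higher and 4 were lower at an unadjusted p under 0.05, beside 2.88% and 3.5% of all genes. The lower count was 2 without Fpr2VKO replicate 2 or without Fpr2f/f replicate 3. Ccnd1, cyclin D1, which carries cells past G1, was at 329, 246 and 316 CPM in Fpr2f/f and 208, 197 and 242 CPM in Fpr2VKO (log2 fold change -0.46, edgeR adjusted p = 0.566). Ccnd2, the more abundant cyclin D2, averaged 569 ± 92.2 CPM with a log2 fold change of -0.02. The study drew a cell cycle list from its stem cell cluster in these same libraries, so it is not independent evidence of a direction. The study also reported altered levels of these genes by RT-qPCR in ileal crypts. In members 15 genes of the list were tested, of which 7 were higher and 8 lower with a median of -0.02. It had 3 higher and 12 lower without Fpr2f/f replicate 2 (median -0.12), 4 and 11 without Fpr2VKO replicate 1 (-0.08), and 8 and 6 of 14 at the 10% mitochondrial limit (0.16). The study's ribosomal protein list came from the same libraries, but from the cluster it named immature cells. In members 6 of 7 were lower, 2 at an unadjusted p under 0.05 and none called. With 1 library left out that count was 1 to 4, lowest without Fpr2f/f replicate 2 or Fpr2VKO replicate 3 and highest without Fpr2f/f replicate 3.

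Histone genes were lower in estimate for 10 of 12 tested, with a median log2 fold change of -1.03 and 6 at an unadjusted p under 0.05, beside 3.5% of all genes, and none was called. The list mixes replication-dependent histones with the variants H2afz and H2afx, and H2afz, the most abundant at 1933 ± 269 CPM, had a log2 fold change of 0.05. Without Fpr2f/f replicate 1, 2 histone genes of the list were called, and without Fpr2f/f replicate 2 none had an unadjusted p under 0.05. The median was -0.53 without Fpr2f/f replicate 2, and -0.47 at the 10% mitochondrial limit, where 7 genes were tested. Genotypes did not overlap for 1 gene, which was lower, beside 5.25% of all genes. The sum of the list overlapped, at 2795, 2688 and 2215 CPM in Fpr2f/f and 2446, 2419 and 2409 CPM in Fpr2VKO.

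In the signalling and stress lists no gene was called, and counts at an unadjusted p under 0.05 stand beside 2.88% higher and 3.5% lower of all genes. Of 21 Wnt pathway genes 2 were higher and 1 lower at an unadjusted p under 0.05, with a median log2 fold change of 0.06, which was -0.05 with at least 2 Lgr5 UMIs required. Neither the 13 Notch nor the 11 Hippo genes had any, with medians of 0.03 and -0.01. Hes1, the main Notch target, averaged 237 ± 19.5 CPM, and Lgr4, the homologue of Lgr5, 207 ± 24.3 CPM over 6 libraries. Of 18 interferon and antigen presentation genes 1 was higher at an unadjusted p under 0.05, of 9 p53 and apoptosis genes 1 was lower, and of 14 immediate early and heat shock genes 1 was lower. The interferon count was 3 of 20 without Fpr2f/f replicate 3. When Fpr2VKO replicate 3 was left out, the immediate early list had 3 higher and 1 lower.

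Lineage lists were tested only where their transcripts were frequent enough. Of 16 enterocyte markers 1, Reg3g, was called, and Reg3b, its relative, was at 3972, 1751 and 1565 CPM in Fpr2f/f and 557, 788 and 808 CPM in Fpr2VKO without passing (log2 fold change -1.77, edgeR adjusted p = 0.554). Both are antimicrobial genes, and of the other 14 markers 11 were higher in estimate. That lean moved with the settings. The whole list, Reg3b and Reg3g included, had 11 higher and 5 lower, and 12 and 5 without Fpr2f/f replicate 2. It had 8 and 9 without Fpr2f/f replicate 1 and 5 and 7 at the 10% mitochondrial limit. None was called among 9 goblet, 8 secretory progenitor, 7 Paneth, 6 enteroendocrine, 2 stromal and 1 tuft markers, and no immune marker was frequent enough to test.

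The last question was whether genotype differences in members differed from those in the neighbouring populations of the same libraries. Against Lgr5+ cells with fewer mitotic transcripts, edgeR's interaction test with library as a block called 3 of 10820 genes (0.0277%), Agr2, Klf6 and Lsmem1, with 468 at an unadjusted p under 0.05. Agr2 was at 44.7, 224 and 139 CPM in Fpr2f/f members and 234, 234 and 331 CPM in Fpr2VKO members, and at 751, 2493 and 1236 CPM and 1044, 840 and 1075 CPM in the less mitotic cells. The differences of log2 fold changes were 1.64 for Agr2 (SE 0.174, edgeR adjusted p = 0.000422), 1.18 for Klf6, a zinc finger transcription factor (adjusted p = 0.00735), and 2.80 for Lsmem1 (adjusted p = 0.0153). Goblet marker sums in the less mitotic cells moved with the Agr2 difference, at 6745, 25063 and 12060 CPM in Fpr2f/f and 6491, 5118 and 6007 CPM in Fpr2VKO. These sums include Agr2 itself, and their part was not tested.

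Against Lgr5-negative dividing cells, edgeR's interaction test called 0 of 11965 genes (0.0%) and DESeq2 called 0, with 596 at an unadjusted p under 0.05 in edgeR. Among genes with at least 20 CPM in members, those nearest to a call, none of which passed, were Zfp36l1, Cxadr and Tgif1 with a larger estimate in members and Gsdmc4, Gm42418 and 2200002D01Rik with a smaller one (adjusted p = 0.397 to 0.457 in edgeR). For the genotype change of Mt1 the difference between dividing cells with and without Lgr5 was -0.33 (SE 0.087) on the log2 scale, with an edgeR adjusted p of 0.457. For Reg3g it was -0.39 (SE 0.346) and for Olfm4 0.12 (SE 0.185), each with an edgeR adjusted p of 0.985.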

How the data were processed

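Ileal crypt epithelium of 3 Fpr2f/f and 3 Fpr2VKO mice was profiled by single-cell RNA-seq. The authors aligned reads to mm10 and deposited unfiltered UMI counts per gene and barcode (32285 genes). Their processing notes also name Seurat 4.0.0. Members and gene lists were chosen with earlier results of these data known. Counts were filtered as the report describes, and raw UMIs were summed per library and population, so the library was the replicate. Sums were tested with edgeR 4.0.16 (R 4.3.3), using TMM, filterByExpr and robust glmQLFit, with DESeq2 1.42.0 as an alternative. An adjusted p under 0.05 was called. The 14 genes of the rule stayed in the fit, and their tests are not reported. CPM is relative to the summed UMIs of a library's cells and is not scaled by gene length. Shares were compared over libraries by exact permutation tests, two-sided, and adjusted over 7. Phases came from cyclone (scran 1.30.0) on cells thinned to 5000 UMIs. Barcodes were scored for doublets with Scrublet (scanpy 1.11.5), and a preset number of top scores per library was marked. Marked barcodes were kept, and removing them was an alternative.

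Named genes were the genes of the rule, Fpr2, called genes of at least 20 CPM without overlap, and list genes, first those called and then those with the highest mean CPM. Where fewer than 3 genes were called, the 3 with the smallest p per direction were named. Vtcn1 and Ascl2 are said to be outside this rule. Other genes outside it, among them Cdkn1a, Klf6 and Lsmem1, are named without such a remark. Between populations, no test was run because the rule set them apart, and ranked genes had at least 50 CPM and 2 CPM added before log2 ratios. On simulated counts (10237 genes, genotype comparison), 88% of changes of 1 and 100% of changes of 2 on the log2 scale were called, with 13 false calls. The changed genes, 100 of each size, were drawn from those above 20 CPM and changed in the same simulated set. Far fewer genes were called in the data, which makes the adjusted p stricter there. These rates therefore do not carry over to the data or to genes under 20 CPM. The alternatives were other tests, filters, scalings, thresholds and depths, each library left out in turn and the replicate number as a block. Intervals and limits from counts cover counting error only.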

Additional observations from a re-analysis of the deposited data

Results flagged for a closer look

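The 3 genes whose genotype difference was not the same in dividing Lgr5+ cells and in Lgr5+ cells with fewer mitotic transcripts stood out by the interaction test in edgeR. Agr2 had a difference of log2 fold changes of 1.64 (adjusted p = 0.000422), and over the other settings it ran from 0.01 to 2.29. Klf6 had 1.18 (adjusted p = 0.00735), with 59.8, 79.9 and 52.3 CPM in Fpr2f/f members, 93.0, 89.1 and 53.2 CPM in Fpr2VKO members, 126, 247 and 140 CPM in less mitotic Fpr2f/f cells and 96.7, 123 and 63.2 CPM in those of Fpr2VKO. Lsmem1 had 2.80 (adjusted p = 0.0153), with 1.97, 12 and 3.93 CPM in Fpr2f/f members and 14.5, 65.0 and 12.5 CPM in Fpr2VKO members, so that 1 library held most of it. Leaving out Fpr2f/f replicate 2 gave edgeR adjusted p-values of 0.0582 for Agr2 and 0.0889 for Klf6, and leaving out Fpr2VKO replicate 2 gave 0.320 for Lsmem1.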

How the results depend on the processing

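The genotype test called 4 genes. It called 9 with DESeq2, 1 with at least 2 Lgr5 UMIs, 0 at the 10% mitochondrial limit, 72 without a filter on low counts, 1 on sums of cells thinned to 5000 UMIs (added after the data were seen), and, with 1 library left out, from 2, where that was Fpr2f/f replicate 3, to 37, where it was Fpr2f/f replicate 1. With the replicate number as a block it called 83. Deviations of same-numbered libraries correlated at -0.057, 0.157 and 0.261. Differently numbered libraries were not compared, so these values cannot decide whether the numbers pair the mice. The main fit has no block, and the shares have no blocked fit. The interaction against less mitotic Lgr5+ cells called 3 genes, and 1 with at least 2 Lgr5 UMIs, 0 at the 10% mitochondrial limit, 1 at a mitotic threshold of 0.03% and 1 at 0.1%, 17 without the filter, and 1 (without Fpr2VKO replicate 2) to 7 (without Fpr2VKO replicate 1) with 1 library left out. The interaction against Lgr5-negative dividing cells called 0, and 1 with at least 10000 UMIs, 2 and 1 at mitochondrial limits of 10% and 40%, 1 at each mitotic threshold, 23 without the filter, and 0 to 3 (without Fpr2VKO replicate 1) with 1 library left out. The causes were not tested.

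Differences between genotypes in shares, in percentage points as Fpr2VKO minus Fpr2f/f, changed sign in these settings. At the 10% mitochondrial limit, dividing Lgr5+ cells among kept barcodes were at -0.093 (3.16 in the report), members with more S-phase UMIs at 2.66 and phase S at -2.93. With at least 2 Lgr5 UMIs, members with more S-phase UMIs were at 1.87, G1 at 4.65 and S at -6.31. At a mitotic threshold of 0.1%, G1 was at 1.29 and G2/M at -2.70, and with at least 10000 UMIs S was at -0.82. Leaving out 1 library gave -1.79 to 7.36 for the dividing share of Lgr5+ cells, 2.03 to 3.89 for members among kept barcodes, 6.22 to 10.7 for Lgr5 among dividing cells, -6.53 to 0.95 for more S-phase UMIs, -6.96 to 0.0401 for G1, -2.04 to 4.29 for S and -4.33 to 8.13 for G2/M. Of 153 alternatives to these counts and shares, 111 kept the direction and stayed within the limits set. Depth limits genes under about 10 CPM and cells with 1 Lgr5 UMI.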

Other observations

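Some lists outside the cell cycle and stem markers were also set beside dividing cells without Lgr5, as a description with no test because the rule set the populations apart. Of 28 Wnt pathway genes, 13 were higher and 1 lower in members in all 6 libraries, beside 20.8% higher and 17.7% lower among all genes of at least 50 CPM, a limit the lists did not have. The list shares 7 genes, among them Ascl2 and Axin2, with the stem markers. Genes of the list that were higher in all 6 included Myc, at 66.7 ± 6.29 CPM (SD, n = 6) against 42.8 ± 6.83 CPM, and Cd44, a cell surface glycoprotein, at 158 ± 17.9 against 94.1 ± 20.3 CPM. The 18 Notch pathway genes, with 4 higher and 2 lower, and the 24 interferon and antigen presentation genes, with 6 higher and 5 lower, were near those shares and went both ways. Cdkn1a, the p21 inhibitor of cyclin-dependent kinases, was at 33.1 ± 14.6 CPM in members and at 92.5 ± 39.0 CPM in Lgr5+ cells with fewer mitotic transcripts, which were above members in all 6 libraries. Of the 16 G1 cyclins and cell cycle inhibitors, 7 were higher and 3, Cdkn1a among them, lower in members in all 6 libraries, beside 24.0% and 15.6% of all genes of at least 50 CPM, so the lower share was near that of all genes.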
